A study of Homo sapiens with 8 samples.

Results

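Genes of PI3K, AKT, mTORC1 and inositol phosphate signalling were examined for binding of the transcription factor RFX7. The set held 5 genes, PIK3IP1, PIK3R3, DDIT4, AKT1S1 and IP6K2, and every listed RFX7 peak inside a gene body or within 10 kb of it was taken. This gave 6 of the 1234 peaks listed for cells treated with Nutlin-3a and 0 of the 556 peaks listed for cells treated with the solvent DMSO. The genes were chosen from the listed peaks, so the presence of a peak, its height and its absence from the other list are descriptions and were not tested. Of the 20037 protein-coding genes in the RefSeq table, 270 (1.35%) had a Nutlin-3a peak by the same rule and 13 (0.0649%) had a DMSO peak.

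The data are chromatin immunoprecipitation sequencing (ChIP-seq) of RPE-1, a telomerase-immortalised human cell line from the retinal pigment epithelium. The treatment was 10 µM Nutlin-3a, which blocks the binding of MDM2 to p53 and so stabilises p53, or DMSO alone, in both cases for 24 h. Each treatment had 2 samples with an RFX7 antibody and 2 samples of input chromatin, 8 in all. The series holds 1 peak list per treatment, so no value below has a replicate error, no comparison between treatments has a test, the depth of the libraries is unknown, and the cell type could not be checked against marker genes. A gene without a peak in a list was not called there, which is not a measurement of no binding.

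RFX7 belongs to the regulatory factor X family, winged-helix proteins that bind a DNA element called the X-box. PI3K is a lipid kinase that, downstream of growth factor receptors, recruits and activates the kinase AKT at the membrane. AKT in turn relieves brakes on mTORC1, the kinase complex that promotes protein synthesis and cell growth. Of the 5 genes, PIK3IP1 codes for a transmembrane protein that binds the catalytic subunit of PI3K and lowers its activity, and PIK3R3 codes for the regulatory subunit p55-gamma of PI3K. DDIT4, also named REDD1, codes for a stress-induced inhibitor that acts on mTORC1 through the TSC complex, and AKT1S1, also named PRAS40, for a component of mTORC1 that inhibits it until AKT phosphorylates it. IP6K2 codes for a kinase that makes inositol pyrophosphates, which can compete with the lipid product of PI3K for the pleckstrin homology domain of AKT. A regulatory subunit such as p55-gamma both stabilises the catalytic subunit and holds it inactive until a receptor is engaged, so a purely restraining role is not its whole function.

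The sequences that the results turn on are those of the 3 genes with a peak over an annotated transcription start. They come from the RefSeq promoter table of GRCh38.p14, which matched 4 of the 5 genes, and run from 250 bases before the start to 20 bases after it, on the strand of the gene. DDIT4 is at chr10:72273674-72273943 on the plus strand, and its capitals mark GTTGC. IP6K2 is at chr3:48717202-48717471 on the minus strand, and its capitals mark GTTGCTA read on the opposite strand. PIK3R3 is at chr1:46133017-46133286 on the minus strand, before an internal start of the gene, and its capitals mark GTTGCC read on the opposite strand.
DDIT4: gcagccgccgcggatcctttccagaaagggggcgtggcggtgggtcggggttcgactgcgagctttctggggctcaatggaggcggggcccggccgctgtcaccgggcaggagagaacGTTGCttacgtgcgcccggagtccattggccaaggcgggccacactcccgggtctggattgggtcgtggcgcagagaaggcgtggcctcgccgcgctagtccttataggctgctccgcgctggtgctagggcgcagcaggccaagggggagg
IP6K2: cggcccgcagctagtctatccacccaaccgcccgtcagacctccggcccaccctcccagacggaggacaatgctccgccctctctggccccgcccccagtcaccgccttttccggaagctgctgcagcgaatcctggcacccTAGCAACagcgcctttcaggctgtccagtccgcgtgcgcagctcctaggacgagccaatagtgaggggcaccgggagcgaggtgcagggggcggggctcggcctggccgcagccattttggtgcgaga
PIK3R3: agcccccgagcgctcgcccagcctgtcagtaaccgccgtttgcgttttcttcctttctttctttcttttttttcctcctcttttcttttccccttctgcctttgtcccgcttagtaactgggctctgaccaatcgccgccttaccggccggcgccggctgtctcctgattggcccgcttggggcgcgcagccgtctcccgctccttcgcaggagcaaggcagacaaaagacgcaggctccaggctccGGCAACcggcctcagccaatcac
All 3 stretches lie wholly inside the Nutlin-3a peak of their gene.

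The peak at DDIT4 was the strongest of the set by both deposited measures. It ran from 72273137 to 72274161 on chromosome 10 (1025 bp), with a fold enrichment of 14.2 and a −log10 p of 139. Fold enrichment here is the peak caller's ratio at the summit and −log10 p its measure of confidence, and both are the authors' values. Among the 1234 Nutlin-3a peaks it ranked 10 by fold enrichment, 93 by −log10 p and 6 by width. Its summit lay 160 bp before the RefSeq start of DDIT4 and 53 bp before that of the antisense non-coding gene DDIT4-AS1. These starts are 213 bp apart and point away from each other, and the peak covered both. Antisense and sense starts this close cannot be told apart as the bound one from a peak list. The GTTGC printed in capitals above lay 30 bp from the summit.

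IP6K2 also had its peak over the start of the gene. The peak ran from 48716642 to 48717505 on chromosome 3 (864 bp), with a fold enrichment of 4.26 and a −log10 p of 102. It ranked 255 by fold enrichment, 143 by −log10 p and 18 by width. The deposited summit was 4 bp from the low-coordinate edge of the peak, which put it 575 bp inside the gene. Measured from the middle of the peak the distance to the start was 148 bp. The GTTGCTA match began 108 bases before the start, 680 bp from the deposited summit and 253 bp from the middle of the peak.

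At PIK3R3 the peaks were at an internal promoter, far from either end of the gene. The gene spans 134762 bp of chromosome 1 (46040140 to 46174901) on the minus strand, and RefSeq gives it 6 start windows. A wide peak ran from 46132617 to 46133786 (1170 bp, 6.82-fold, −log10 p 113) and a narrow one from 46132390 to 46132581 (192 bp, 3.71-fold, −log10 p 10.4), with 35 bp between them. The summit of the wide peak was 42208 bp from the nearest gene end but 64 bp from an internal PIK3R3 start. The wide peak covered 3 internal PIK3R3 starts, at 46132629, 46132795 and 46133036, and the start of the divergent non-coding gene LOC101929626, which lies 335 bp from the last of these. The outermost PIK3R3 start, at 46174901, had no peak in either list. The read-through gene P3R3URF-PIK3R3 covers the same interval and cannot be told apart from PIK3R3 here.

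By width the larger PIK3R3 peak ranked 4 of 1234, ahead of DDIT4, and by fold enrichment and −log10 p it ranked 70 and 124. The narrow peak ranked 358 by fold enrichment and 956 by −log10 p, the lowest of the set by −log10 p. Among protein-coding genes 24 had at least 2 Nutlin-3a peaks by the rule used here and 246 had exactly 1. The GTTGCC match began 3 bases before the start at 46133036, 344 bp from the summit of the wide peak and 164 bp from its middle.

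**Figure D1:**
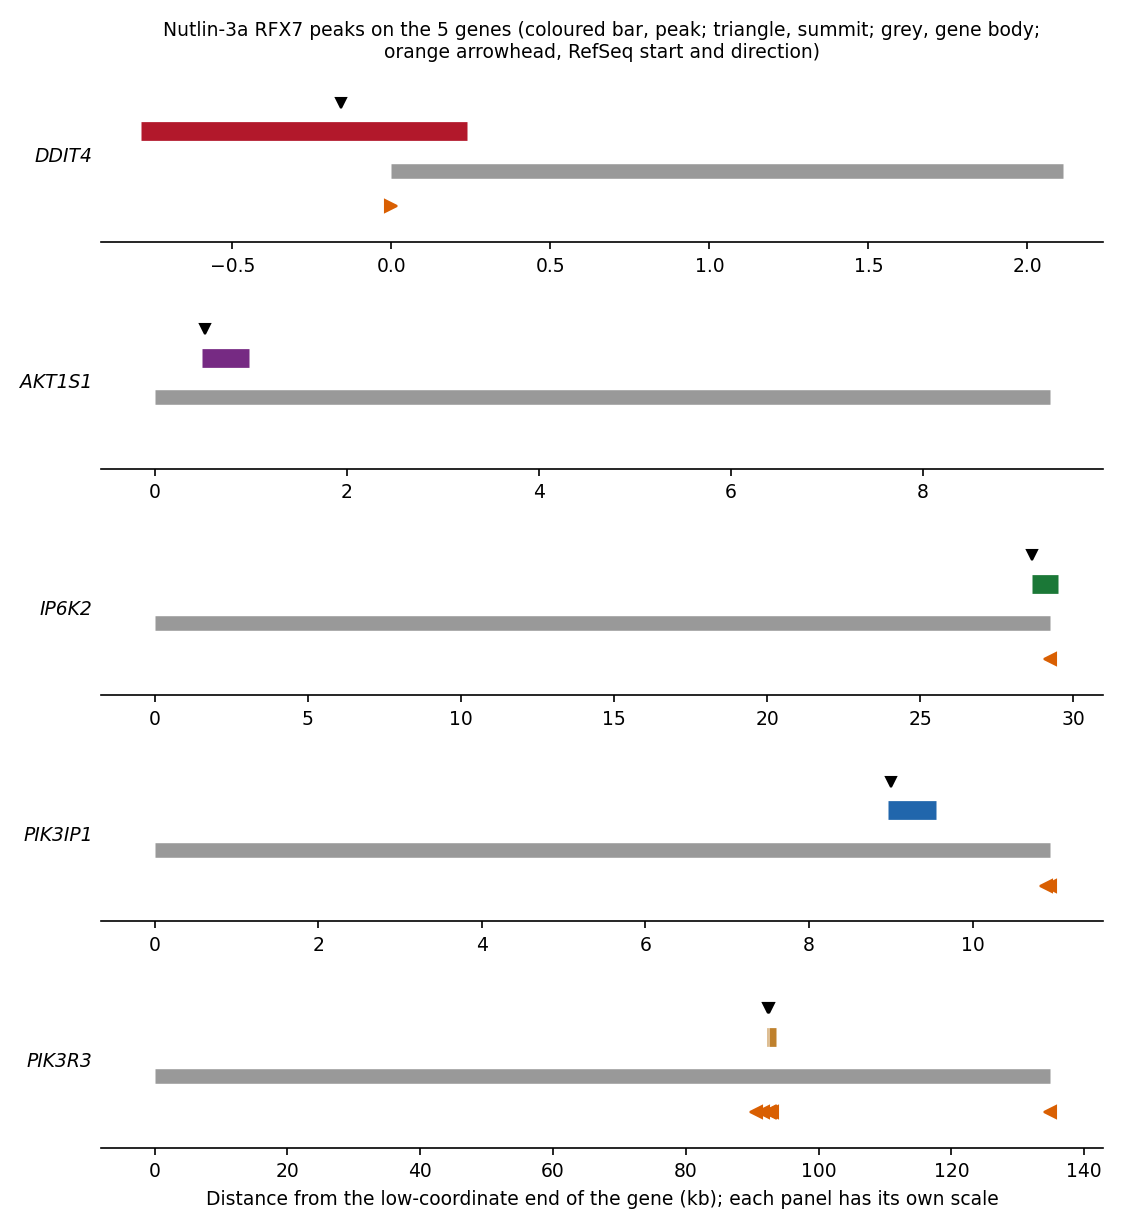
Positions of the Nutlin-3a RFX7 peaks (coloured bars) and their deposited summits (black triangles) on each gene body (grey), in kb from the low-coordinate end of the gene, with RefSeq starts as orange arrowheads that point along transcription. DDIT4 and IP6K2 have a peak over a start at the gene end, PIK3R3 has its 2 peaks at internal starts, and the PIK3IP1 peak lies inside the gene. The summit of the AKT1S1 peak lies 527 bp from the low-coordinate end, and no start is drawn for this gene.

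PIK3IP1 had its peak inside the gene and downstream of the start. The peak ran from 31290564 to 31291141 on chromosome 22 (578 bp), with a fold enrichment of 7.13, the second of the set, and a −log10 p of 89.4. It ranked 63 by fold enrichment, 168 by −log10 p and 60 by width. RefSeq gives 2 start windows for this minus-strand gene, at 31292534 and 31292488. The summit was 1932 and 1886 bp downstream of them, and the nearer peak edge 1393 and 1347 bp. Neither start window overlapped the peak.

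The AKT1S1 peak was strong by −log10 p and weak by fold enrichment. It ran from 49869522 to 49870014 on chromosome 19 (493 bp), and its −log10 p of 121 was exceeded in the set by DDIT4 alone, whereas its fold enrichment of 2.73 was the lowest of the set. It ranked 113 by −log10 p and 624 by fold enrichment. Its summit lay inside AKT1S1 (49869033 to 49878356), 527 bp from the low-coordinate end and 8796 bp from the other, which overlaps TBC1D17, a gene for a Rab GTPase-activating protein. The peak list does not show which gene, if any, the bound site acts on.

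**Figure D2:**
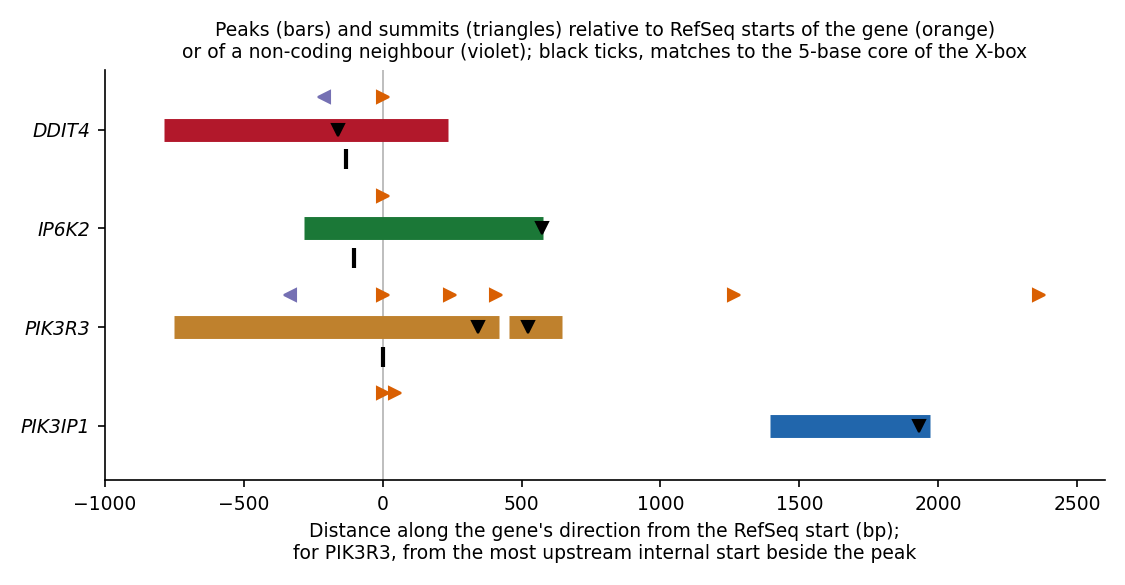
Peaks (bars) and summits (triangles) of the 4 genes with RefSeq starts, in bp along the direction of transcription from the start, or for PIK3R3 from the most upstream internal start beside the peak; orange arrowheads are starts of the gene, violet ones starts of a non-coding neighbour, and black ticks matches to GTTGC inside a peak. The peaks of DDIT4 and IP6K2 and the wide PIK3R3 peak span the start, the narrow PIK3R3 peak lies 455 bp downstream of it and covers no start, and the PIK3IP1 peak begins 1393 bp downstream of it.

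The measures thus ordered the set differently. From high to low fold enrichment the order was DDIT4, PIK3IP1, the wide PIK3R3 peak, IP6K2, the narrow PIK3R3 peak and AKT1S1. By −log10 p it was DDIT4, AKT1S1, the wide PIK3R3 peak, IP6K2, PIK3IP1 and the narrow PIK3R3 peak. Without replicates no spread is available to say which neighbours in these orders differ. For comparison, the medians over all Nutlin-3a peaks, including those in clusters, were a fold enrichment of 2.77, a −log10 p of 23.8 and a width of 161 bp. Ranks among peaks outside clusters are given below. All 6 peaks were wider than the median, 5 had a larger −log10 p (the narrow PIK3R3 peak did not) and 5 had a larger fold enrichment (AKT1S1 did not).

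Most of the wide peaks had their deposited summit near an edge. In AKT1S1, IP6K2, PIK3IP1 and the wide PIK3R3 peak, which are 4 of the 5 peaks with a width of 300 bp or more, the summit fell within the first 10% from the low-coordinate edge, at 7.71, 0.463, 6.57 and 6.50% of its width. In DDIT4 it lay at 61.2%. Over all Nutlin-3a peaks this wide that lay outside clusters (defined below), 32 of 110 (29.1%) had such a summit. Those 32 had a median fold enrichment of 5.07 and a median −log10 p of 64.2, and the other 78 had 6.33 and 34.3. AKT1S1 had the lowest fold enrichment of the 32. The part of the summit position in the fold enrichments of the set was not tested. How the 2 ChIP replicates were combined into 1 list is not given in the sources used here, so it is unknown whether the summit offset and the fold enrichment of these 4 peaks refer to the whole listed interval, and their summit distances carry that limit.

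**Figure D3:**
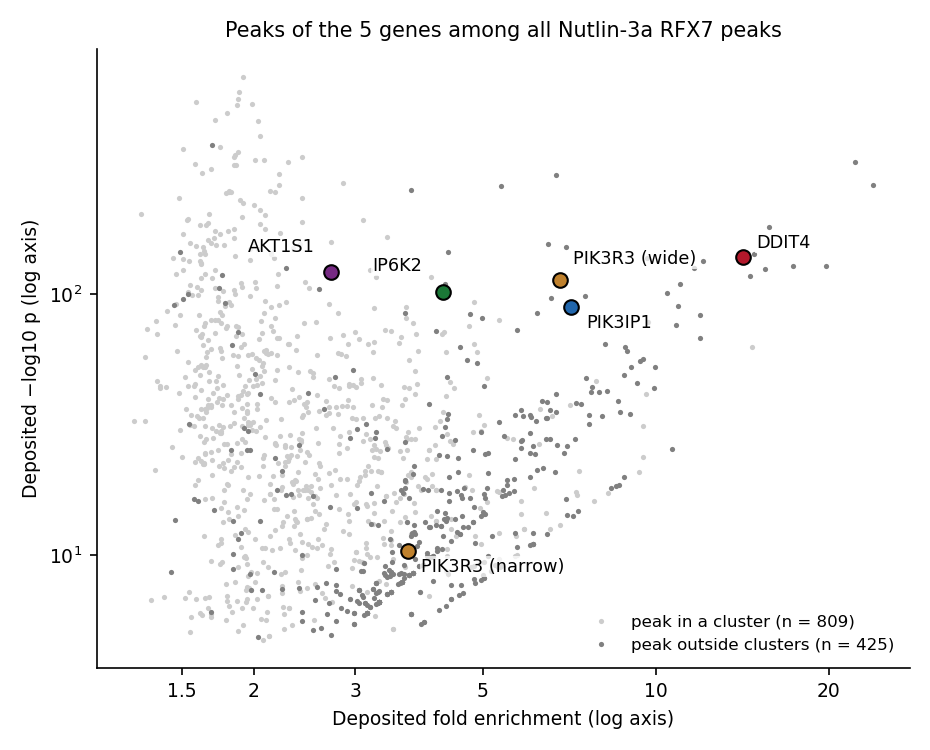
Deposited fold enrichment (x axis, log scale) and −log10 p (y axis, log scale) of all 1234 Nutlin-3a peaks, in light grey for peaks in clusters and dark grey for those outside, with the 6 peaks of the 5 genes in colour. DDIT4 lies at 14.2-fold and AKT1S1 at 2.73-fold with similar −log10 p (139 and 121), and the narrow PIK3R3 peak lies apart at a −log10 p of 10.4.

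All 6 peaks stood outside the dense groups of peaks that make up most of the list. A peak was called clustered when at least 5 other listed regions lay within 500 kb, which left 425 Nutlin-3a peaks (34.4%) outside clusters. Within 500 kb, the peaks of PIK3IP1, DDIT4 and AKT1S1 had 0 other listed regions, those of PIK3R3 had 1 (each other), and that of IP6K2 had 2. Among the 425 peaks DDIT4 ranked 9 by fold enrichment and 13 by −log10 p, and AKT1S1 ranked 365 and 21. PIK3IP1 ranked 52 and 39, the wide PIK3R3 peak 58 and 24, IP6K2 189 and 29, and the narrow PIK3R3 peak 252 and 256. By fold enrichment the narrow PIK3R3 peak and AKT1S1 thus stood in the lower part of these 425. The nearest other Nutlin-3a peak was 130 kb away at IP6K2 and between 1.91 and 5.18 Mb away at DDIT4, AKT1S1 and PIK3IP1. The nearest DMSO peak was 12.1 Mb from the AKT1S1 peak, 14.9 Mb from PIK3IP1, 27.0 Mb from IP6K2, 30.4 Mb from DDIT4 and 75.6 Mb from PIK3R3. All 6 peaks lay inside or overlapped a gene body or its start, none lay near the 10 kb limit, and none overlapped a DMSO peak. A summit within 1000 bp of a gene end was found for 3 of the 5 genes, DDIT4, AKT1S1 and IP6K2, in the Nutlin-3a list (0.569% of protein-coding genes) and for 0 in the DMSO list (0.00499% of protein-coding genes). A gene end here is either end of the gene body and need not be the start. The DDIT4 and IP6K2 peaks cover a RefSeq start. No start window was available for AKT1S1, so its peak is not counted as lying at a start.

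**Figure D4:**
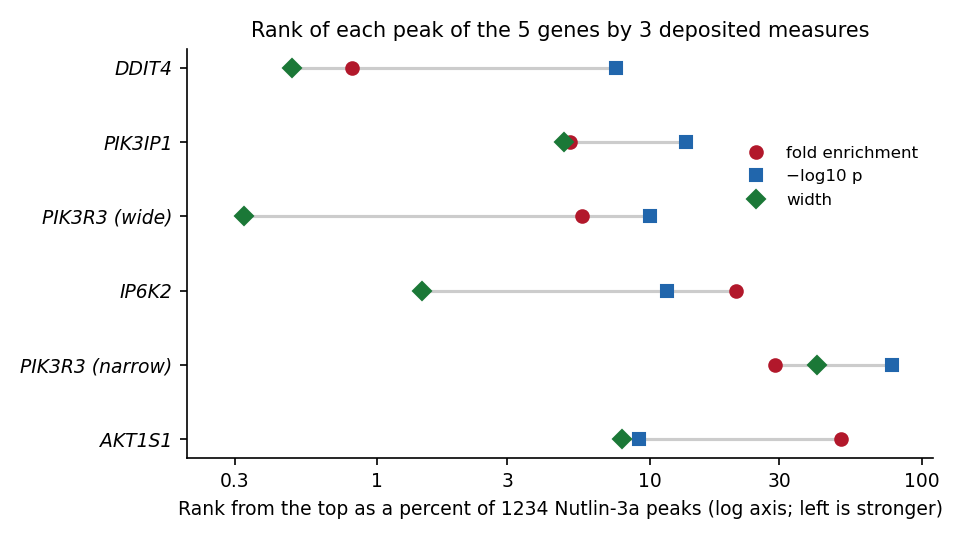
Rank of each of the 6 peaks from the top, as a percent of the 1234 Nutlin-3a peaks on a log axis, by fold enrichment (circles), −log10 p (squares) and width (diamonds). DDIT4 is in the top 0.810% by fold enrichment and AKT1S1 at 50.6%, whereas by −log10 p they are at 7.54 and 9.16%.

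Start windows wholly inside a peak had more G and C than those that did not overlap one. Only PIK3R3 had windows of both kinds. Windows of 300 bases around the start (250 before and 50 after) had a GC content of 69.7% at DDIT4, 66.7% at IP6K2, and 61.0 and 64.0% at the 2 internal PIK3R3 starts whose windows lie wholly in the peak. The PIK3R3 window at the start at 46132629, of which 263 of 300 bases lie in the wide peak, had 63.7%. The PIK3R3 starts whose windows do not overlap a peak had 52.7% (the outermost), 44.0 and 34.0%, and the PIK3IP1 starts had 48.3 and 49.7%. The median over 22199 windows of protein-coding genes was 62.3%, and over the 32 windows wholly inside a Nutlin-3a peak 66.2%. The ratio of observed to expected CpG was 0.861 at DDIT4, 0.758 at IP6K2 and 0.913 and 0.751 at the internal PIK3R3 starts in the peak. It was 0.299 at the outermost PIK3R3 start and 0.343 and 0.324 at PIK3IP1, but an internal PIK3R3 start outside the peak had 0.793, so this ratio did not separate the windows.

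Short words of the X-box were searched on both strands of these windows, as exact matches. GTTGCCA or GTTGCTA was found in 1 of the 4 genes with a window, IP6K2, and in 1481 of 22199 protein-coding windows (6.67%). GTTGCC was found at PIK3R3 only, and in 12.6% of windows. An X-box palindrome, GTTGCC followed after 2 bases by GGNAAC, was found at none of them and in 0.378% of windows. GTTGC, which all these words contain, was searched after the DDIT4 sequence had been seen, and was found at DDIT4, IP6K2 and PIK3R3 and in 33.8% of windows. A gene was counted if any of its windows matched, and PIK3R3 has 6 windows, PIK3IP1 2, and DDIT4 and IP6K2 1 each. At PIK3R3 overlapping windows shared the same site, at 46133034. The percentages are shares of windows, so they cannot be set directly against these counts of genes. PIK3IP1 had no match to any of the words, in windows that lie outside its peak. The sequence under the AKT1S1 and PIK3IP1 peaks was not used here. A match is a description of the letters and is not evidence of a bound site.

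Some other genes of the pathway also had a listed peak. Of 106 further genes of PI3K, AKT, mTORC1 and inositol phosphate signalling, 4 (3.77%) had a Nutlin-3a peak inside or within 10 kb, against 1.35% of protein-coding genes, and 0 had a DMSO peak. The list was drawn up with earlier results of these data known and only 4 genes were called, so the difference between these shares was not tested. RHEB, the small GTPase that switches mTORC1 on, had a peak of 3.38-fold (−log10 p 9.06) with its summit 85 bp outside the start of the gene. SESN3, a sestrin that restrains mTORC1 when amino acids are low, had one of 5.68-fold (−log10 p 23.4), 1405 bp inside the gene from its start and 884 bp from the start of the non-coding gene LOC100129203. STK11, the kinase that activates AMPK, had one of 6.75-fold (−log10 p 26.4), 8055 bp inside the gene from its nearer end. PIK3R2, a regulatory subunit of PI3K like PIK3R3, had one of 4.34-fold (−log10 p 33.2), 4003 bp inside the gene from its nearer end.

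These 4 peaks had −log10 p values of 9.06 to 33.2, below the 89.4 to 139 of the main peak at each of the 5 genes. The narrow PIK3R3 peak, at 10.4, lay within their range. Their fold enrichments of 3.38 to 6.75 lay within the range of 2.73 to 14.2. The 5 genes were chosen from the listed peaks, so the difference in −log10 p is a description and was not tested. No peak was listed for the 8 genes of lipid phosphatases and other brakes on PI3K, for the 11 genes of AKT kinases with their activators and inhibitors, or for the 10 genes of mTORC1 and mTORC2 subunits. The 9 genes of mTORC1 outputs had none, and neither did the 18 other genes of inositol phosphate kinases and phosphatases, which include the paralogs IP6K1 and IP6K3. DDIT4L, the paralog of DDIT4, had no peak either. With 1.35% of protein-coding genes called, groups of this size would mostly hold none, so these counts of 0 say nothing particular about the groups.

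**Figure D5:**
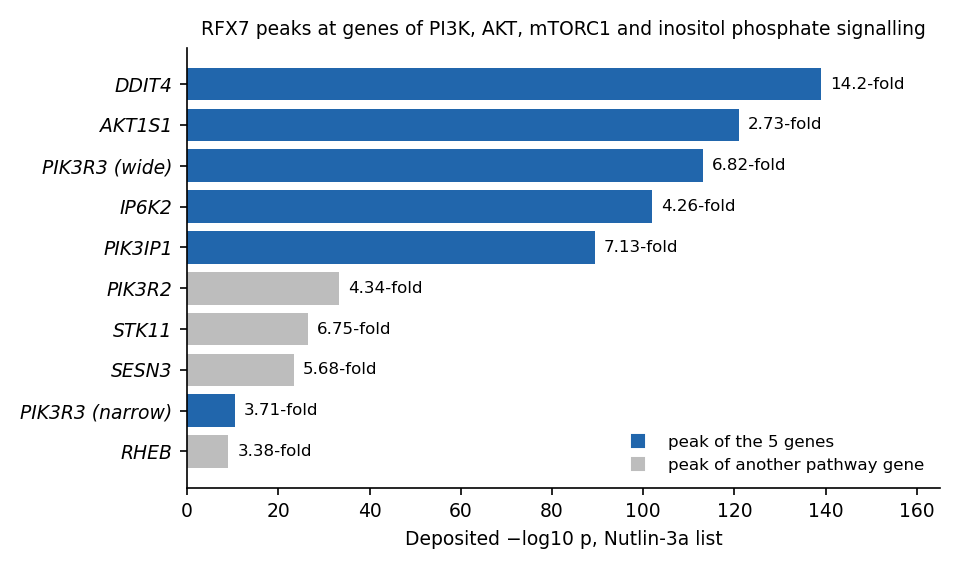
Deposited −log10 p of every Nutlin-3a peak at the 5 genes (blue) and at the other 106 genes of the pathway list (grey), with the fold enrichment beside each bar. The main peaks of the 5 genes, which were chosen from the listed peaks, range from 89.4 to 139. The narrow PIK3R3 peak is at 10.4, and the peaks of PIK3R2, STK11, SESN3 and RHEB range from 33.2 down to 9.06.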

How the data were processed

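RFX7 ChIP and input chromatin were sequenced from RPE-1 cells treated with Nutlin-3a or DMSO, and groups were taken from the sample titles. The 2 peak lists deposited by the authors are in narrowPeak layout on hg38, per the submitters' processing notes, which name MACS2 2.2.7.1, SAMtools 1.10, Picard, bedtools 2.29.2, Trimmomatic 0.39 and cutadapt 2.10. The aligner, the control used for peak calling and the way ChIP replicates were combined are not given in the sources used here. The authors deposited for each peak a fold enrichment (a ratio at the summit), a −log10 p, a −log10 q, a summit offset and a score. The deposited score was 10 times the −log10 q, cut to a whole number, in 1233 of 1234 Nutlin-3a peaks, and was not used further.

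Peaks were joined to gene bodies of the RefSeq table of GRCh38.p14 with Python 3.11.15, with an overlap of at least 1 bp after extending the gene by 10 kb. All 106 genes of the pathway list matched by symbol or synonym. Promoter windows of 300 bases came from RefSeq. The overlap and motif steps were checked on simulated data. Every peak of the 5 genes and of the pathway list is named. The 5 genes, the pathway list and the measures were chosen with earlier results of these data known. No test was run, since the choice of genes used the peaks and there are no replicates.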

Additional observations from a re-analysis of the deposited data

How the results depend on the processing

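No paired analysis was possible because the deposited values are not split by replicate, and no replicate could be left out either. All 5 genes kept a Nutlin-3a peak, and 0 a DMSO peak, with a distance of 1 or 50 kb, with the summit in place of any overlap and with a −log10 q of at least 5. Under these settings the shares of all protein-coding genes with a Nutlin-3a peak were 1.03, 2.85, 1.34 and 1.09%, and with a DMSO peak 0.0499, 0.205, 0.0649 and 0.0549%. With a summit required within 1 kb of a gene end, 3 of the 5 genes had a Nutlin-3a peak (background 0.569% of protein-coding genes), because the PIK3R3 and PIK3IP1 summits lie further inside. Of the 106 pathway genes, 8 had a Nutlin-3a peak within 50 kb (2.85% of protein-coding genes did). With a −log10 q of at least 5 the count was 3 (1.09% did), without RHEB, whose peak had a −log10 q of 4.84. With a summit within 1 kb of a gene end it was 1 (0.569% did), RHEB. Of the pathway genes 0 had a DMSO peak under any of these settings. In the promoter windows, the X-box palindrome gave 0 genes and GTTGC, chosen after seeing the data, gave 3, in place of 1. Ranked by −log10 p rather than by fold enrichment, all 6 ranks moved by over 1.5 times. Ranks by fold enrichment among peaks outside clusters come from a shorter list, so they cannot be set directly against ranks in the full list. IP6K2 went from 255 of 1234 to 189 of 425, and AKT1S1 from 624 of 1234 to 365 of 425. Relative to the length of the list, all 6 peaks stood lower among peaks outside clusters. Measured from the middle of the peak, 2 of the 6 distances to a gene end moved by over 1.5 times, DDIT4 (from 160 to 275 bp) and IP6K2 (from 575 to 148 bp). Unknown depth limits every absence.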

Other observations

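The word GTTGC was noticed in the DDIT4 promoter and then counted at other genes. Of the 28 protein-coding start windows of 300 bases that lie wholly inside a Nutlin-3a peak and belong to none of the 5 genes, 24 (85.7%) held GTTGC on either strand, against 33.8% of all 22199 protein-coding windows. GTTGCTA was found in 8 of the 28 (28.6%, against 2.85% of all windows) and GTTGCCA in 1 (3.57%, against 4.01%). GTTGCC was found in 10 of the 28 (35.7%, against 12.6%). The X-box palindrome was found in 0 of them. Windows inside peaks had a median GC content of 66.2% and all windows 62.3%, some windows overlap each other, and the part of base composition in these shares was not tested.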
